A study of Homo sapiens with 6 samples.

Results

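The N-myc downstream-regulated genes NDRG1, NDRG2, NDRG3 and NDRG4 were followed in LN229 cells, an established human glioblastoma cell line, with and without PARP3, an enzyme that attaches single ADP-ribose units to proteins and DNA ends. The 4 genes were taken by name from the 33841 genes listed in the count table, and all 4 passed the filter on low counts that left 17144 genes for testing. Total RNA came from the parental line (WT, genotype PARP3+/+) and from derived LN229 cells whose PARP3 gene was cut with CRISPR/Cas9 (PARP3-/-), with 3 libraries per genotype. Both genotypes were proliferating cells in the same medium, and the labels name no low-oxygen step. PARP3-/- colonies were raised from single sorted cells, so the loss of PARP3 and the particular clone cannot be told apart, and the labels do not say which clone was sequenced. The study describes the 3 libraries of each genotype as biological replicates, and p-values here measure the spread between them. In bulk RNA, fewer cells expressing a gene and less RNA per cell cannot be told apart.

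The NDRG proteins resemble alpha/beta hydrolases but lack hydrolase activity. NDRG1 is known as a hypoxia-induced stress gene that the MYC proteins repress and whose product is phosphorylated by SGK1 and then GSK3, NDRG2 is a gene of astrocytes often described as tumor suppressive, NDRG3 binds lactate and is stabilized under low oxygen, and NDRG4 is typical of neurons and heart muscle. The study measured NDRG1, NDRG2 and NDRG4 as hypoxia-responsive targets of the histone methyltransferase G9a, a partner of PARP3. By RT-qPCR at normal oxygen, it reported lower RNA of all of them in PARP3-deficient LN229 cells. The question addressed here is whether the RNA-seq counts of these genes, and of NDRG3, differed between the genotypes.

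The libraries held between 29692065 and 46010369 counts on genes, so that 3 counts, taken as the smallest number told from no reads, correspond to 0.0652 to 0.101 CPM, which are counts scaled by the depth of each library. This limit takes in counting error alone. Replicate 1 stood apart from replicates 2 and 3 in both genotypes, with a chi-square per degree of freedom between libraries of 55.2 to 107 against 4.16 to 12.3 for replicates 2 and 3. Results that rest on replicate 1 are therefore given with and without it. PARP3 itself had 34.9, 22.4 and 24.3 CPM in WT replicates 1, 2 and 3 and 19.1, 22.5 and 19.5 CPM in the PARP3-/- ones, and its log2 fold change was -0.42 (adjusted p = 0.307 in edgeR, 0.0469 with the replicate number as a block). It was -0.20 without WT replicate 1 and -0.15 without replicate 1 of both genotypes (adjusted p = 0.278 in edgeR). PARP3 RNA thus did not tell the genotypes apart, and each library carries the genotype of its label. The study checked its knockout clones by sequencing the deletion and by western blot for PARP3 protein, which gene counts do not measure. The line was checked by its markers: VIM, the mesenchymal filament vimentin, stood at 3688 to 4382 CPM, whereas GFAP, the filament of mature astrocytes, had 1 to 17 counts in a library. Of 6 neuronal genes, RBFOX3 and STMN2 had at most 1 count in any library. The others were present, SYT1 at 43.6 to 108 CPM, SNAP25 at 9.28 to 11.9, TUBB3 at 4.58 to 5.93 and SYP at 1.77 to 3.01. The astrocyte gene S100B stood at 78.1 to 234 CPM, so neuronal and astrocytic genes were not absent as a group. Immune and endothelial markers summed to at most 0.849 CPM in any library.

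The 4 genes lie on 4 chromosomes. In hg38, NDRG1 (ENSG00000104419) occupies chromosome 8 from 133237171 to 133302022 on the minus strand, NDRG2 (ENSG00000165795) chromosome 14 from 21016763 to 21070872 on the minus strand, NDRG3 (ENSG00000101079) chromosome 20 from 36651766 to 36746078 on the minus strand, and NDRG4 (ENSG00000103034) chromosome 16 from 58462846 to 58513628 on the plus strand.

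The canonical transcripts in GENCODE 44 resemble each other, with 15 exons in NDRG4 and 16 in each of the others and coding sequences of 1056 bp (NDRG4), 1113 bp (NDRG2), 1125 bp (NDRG3) and 1182 bp (NDRG1). The number of annotated transcripts differs more, with 5 for NDRG3, 55 for NDRG4, 61 for NDRG1 and 77 for NDRG2. No stretch of 40 bases is shared between transcripts of different members, so reads of one could not be counted for another by exact match. Of the distinct 40-base stretches of each gene, 5.45% in NDRG1, 1.70% in NDRG2, 3.37% in NDRG3 and 0 in NDRG4 also occur in transcripts of genes outside the family.

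RefSeq promoter windows of 250 bases before a start site (GRCh38.p14) were at hand for 5 starts of NDRG2 and 4 starts of NDRG4. They are shown because these 2 genes start transcription at several places with very different base composition. The sequence before the canonical start of NDRG2 (chromosome 14, position 21025061) holds 23 CpG pairs in the window, against a median of 11 over all 34943 windows, and 2 starts of NDRG4 differ further, with 40 CpG pairs before position 58463715 and 3 before the canonical start at 58500143. The longest stretch of each of these windows outside annotated untranslated exons is given below, 5′ to 3′ on the strand of the gene. Capitals mark the hypoxia-response core GCGTG on either strand (CACGC on the other).
NDRG2, chr14:21025141-21025192, minus strand: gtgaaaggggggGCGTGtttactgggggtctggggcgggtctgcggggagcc
NDRG4, chr16:58463465-58463630, plus strand: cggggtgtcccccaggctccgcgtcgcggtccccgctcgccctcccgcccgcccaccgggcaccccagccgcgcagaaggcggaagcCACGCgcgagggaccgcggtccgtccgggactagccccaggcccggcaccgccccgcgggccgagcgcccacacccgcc
NDRG4, chr16:58499893-58500046, plus strand: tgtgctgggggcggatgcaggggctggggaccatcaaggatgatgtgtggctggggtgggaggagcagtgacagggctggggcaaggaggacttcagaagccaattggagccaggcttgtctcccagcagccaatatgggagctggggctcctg

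GCGTG was found in 3 of the 5 NDRG2 windows and 1 of the 4 NDRG4 windows, and 32.2% of all promoter windows hold it. The NDRG2 windows before positions 21025061 and 21025105 overlap and hold the same GCGTG, so that site is counted in both. The other form of the core, ACGTG, was in none of the 9 windows and in 18.5% of all windows, and the E-box CACGTG bound by MYC and MAX, which contains ACGTG, was in none of the 9 and in 6.32% of all. These matches describe the letters in the windows only.

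NDRG2 fell in PARP3-/- LN229. Replicates 1, 2 and 3 had 191, 255 and 299 counts of it in WT, and 82, 128 and 90 counts in PARP3-/-. After TMM scaling these counts were 5.23, 6.08 and 7.29 CPM in WT and 2.72, 2.87 and 2.38 CPM in PARP3-/-. All 3 PARP3-/- libraries were below all 3 WT libraries, a separation in that direction shown by 12% of all genes tested. The means were 6.20 ± 1.04 CPM and 2.66 ± 0.251 CPM (SD, n = 3 each). This is a log2 fold change of -1.22 (standard error 0.17, 95% interval -1.62 to -0.82, Benjamini-Hochberg adjusted p = 0.00954 in the quasi-likelihood test of edgeR), or 0.429 of the WT level. Within same-numbered pairs the PARP3-/- library had 0.520, 0.473 and 0.327 of the WT level for replicates 1, 2 and 3. Leaving out PARP3-/- replicate 3 raised the adjusted p to 0.0571 at a log2 fold change of -1.15, and leaving out replicate 1 of both genotypes gave -1.34 (adjusted p = 0.00033).

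NDRG1 had the highest mean level of the family in WT, in CPM not corrected for length, whereas NDRG3 had more counts in WT replicate 2 and PARP3-/- replicates 2 and 3. NDRG1 was counted 4383, 3154 and 3595 times in WT and 2399, 2877 and 2258 times in PARP3-/-, which gave 120, 75.2 and 87.7 CPM in WT and 79.6, 64.6 and 59.8 CPM in PARP3-/- for replicates 1, 2 and 3. The genotypes overlapped, since PARP3-/- replicate 1 lay above WT replicate 2, but in each same-numbered pair the PARP3-/- library was lower, at 0.663, 0.859 and 0.682 of WT. Of all genes tested, 27.2% were lower in all 3 pairs. The means were 94.3 ± 23.2 CPM and 68.0 ± 10.4 CPM (SD, n = 3 each). The log2 fold change was -0.47 (standard error 0.19, 95% interval -0.92 to -0.02) and did not pass the test across all genes (adjusted p = 0.283 in edgeR). With the replicate number as a block it was -0.45 (standard error 0.07, 95% interval -0.61 to -0.30, adjusted p = 0.000842 in edgeR). The block takes same-numbered libraries as pairs, which the labels do not state. Without replicate 1 of both genotypes it was -0.39 (adjusted p = 0.00657 in edgeR), and leaving out WT replicate 1 alone brought it to -0.26.

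NDRG3 was level between the libraries. It was counted 2576, 3203 and 3108 times in WT and 2156, 3239 and 2774 times in PARP3-/-, or 70.6, 76.3 and 75.8 CPM and 71.6, 72.7 and 73.4 CPM. The PARP3-/- values all lay within the WT range. Its log2 fold change of -0.03 had a standard error of 0.07 and a 95% interval of -0.20 to 0.13 (adjusted p = 0.905 in edgeR). The block left it at -0.03 (adjusted p = 0.684 in edgeR).

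NDRG4 was counted 564, 946 and 958 times in WT and 501, 942 and 736 times in PARP3-/-, or 15.4, 22.5 and 23.4 CPM and 16.6, 21.1 and 19.5 CPM. The genotypes overlapped, and replicate 1 was the lowest library in both. Its log2 fold change of -0.10 had a standard error of 0.18 and a 95% interval of -0.51 to 0.32, wider than that of NDRG3 (adjusted p = 0.880 in edgeR). With the block it was -0.09 (95% interval -0.26 to 0.08, adjusted p = 0.441 in edgeR). Without replicate 1 of both genotypes it was -0.18 (standard error 0.08, adjusted p = 0.146 in edgeR). It moved between -0.27 without WT replicate 1 and 0.01 without WT replicate 3, so its sign is not settled.

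**Figure D1:**
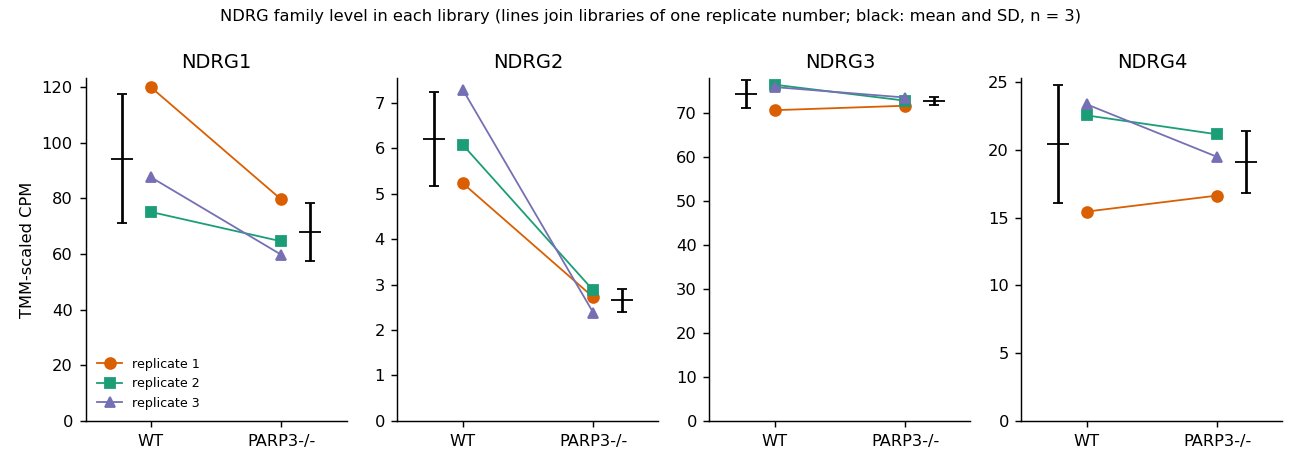
TMM-scaled CPM (vertical axes, from 0) of the 4 NDRG genes in WT and PARP3-/- LN229, 1 panel per gene; coloured points are libraries, lines join libraries of 1 replicate number, and black bars give the mean and SD (n = 3). The NDRG2 libraries separate by genotype, NDRG1 is lower along each line although its genotypes overlap, and NDRG3 and NDRG4 overlap.

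Of the 4 genes, 1 (NDRG2) was called lower and 0 higher at an adjusted p under 0.05 in edgeR, where 3.33% of all genes tested were called lower, 1.36% higher and 4.7% in either direction. At an unadjusted p under 0.05, 2 of the 4 passed (NDRG1 and NDRG2), against 16.3% of all genes. With the replicate block 2 of the 4 were called lower, beside 12.5% of all genes lower, 11.8% higher and 24.3% in either direction. DESeq2 called 1 of the 4, NDRG2 at a log2 fold change of -1.22 (adjusted p = 3.47e-07), beside 3.84% of genes lower, 2.09% higher and 5.93% in either direction. Without replicate 1 of both genotypes, 2 of the 4 were called lower in edgeR, beside 10.1% of genes lower, 8.91% higher and 19% in either direction. Of the members that the study reported lower by RT-qPCR, NDRG2 was called lower on genotype alone. NDRG1 was called only with the block or without replicate 1 of both genotypes, and NDRG4 in no fit run. Whether the members' changes differ from each other was not tested.

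**Figure D2:**
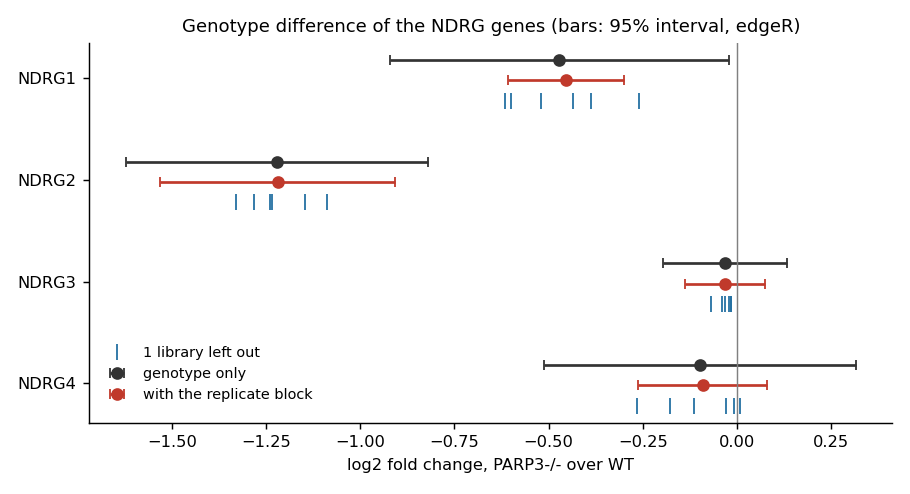
Log2 fold change of PARP3-/- over WT (horizontal axis) for the 4 NDRG genes; black points are the edgeR fit on genotype alone, red points the fit with the replicate block, bars are 95% intervals, and blue ticks are the 6 fits that leave out 1 library each. NDRG2 stays between -1.33 and -1.09 and NDRG1 between -0.61 and -0.26 in the latter fits, while the bars of NDRG3 and NDRG4 span 0.

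Replicate 1 differed from replicates 2 and 3 in different directions among the members. NDRG1 in replicate 1 was 1.47 times the mean of the other replicates in WT and 1.28 times in PARP3-/-. NDRG4 in replicate 1 was lower in both genotypes, at 0.673 and 0.819 of that mean. NDRG3 stayed closer, at 0.928 and 0.979, and NDRG2 stood at 0.783 in WT and 1.04 in PARP3-/-. For NDRG1, NDRG3 and NDRG4, replicate 1 thus lay outside the range of the other 2 libraries on the same side in both genotypes.

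Levels of different genes were compared as CPM per kb of transcript length. With the median transcript length that the authors list (584 bp for NDRG1, 637 bp for NDRG2, 589 bp for NDRG4 and 2917 bp for NDRG3), NDRG1 was highest at 129 to 206 CPM per kb in WT and 102 to 136 in PARP3-/-. NDRG4 followed at 26.2 to 39.7 and 28.2 to 35.9 CPM per kb, NDRG3 at 24.2 to 26.2 and 24.5 to 25.2, and NDRG2 was lowest at 8.21 to 11.4 and 3.74 to 4.51. The authors' median is shorter than the canonical coding sequences of NDRG1 (1182 bp), NDRG2 (1113 bp) and NDRG4 (1056 bp), and so cannot hold them. For NDRG3 it exceeds the coding sequence (1125 bp). The order was the same in both genotypes, but the WT ranges of NDRG3 and NDRG4 nearly touch. With the canonical transcript (2971 to 3208 bp) in place of the median length, NDRG1 (24.8 to 39.7 CPM per kb in WT) and NDRG3 (23.7 to 25.7) overlapped, and NDRG4 dropped to 4.82 to 7.28, still above NDRG2 at 1.76 to 2.45. In PARP3-/- with that length, NDRG3 (24.1 to 24.7 CPM per kb) lay above NDRG1 in replicates 2 and 3 (21.4 and 19.8) and below it in replicate 1 (26.3). The place of NDRG3 thus rests on which length is used, while NDRG2 was lowest with both.

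With the authors' length, NDRG2 made up 4.28% ± 1.03 of the summed level per kb of the family in WT and 2.35% ± 0.189 in PARP3-/- (SD, n = 3 each). The 3 PARP3-/- shares were all lower, and the difference of -1.93 percentage points has an exact two-sided permutation p of 0.1, the smallest that 3 libraries against 3 allow. NDRG1 made up 69.1% ± 7.63 in WT and 65.2% ± 4.59 in PARP3-/- (SD, n = 3 each; exact permutation p = 0.5), NDRG3 11.2% ± 1.89 and 14.1% ± 1.32 (exact permutation p = 0.2), and NDRG4 15.4% ± 4.81 and 18.4% ± 3.28 (exact permutation p = 0.5). This test ignores the pairing by replicate number. Within the 3 same-numbered pairs, the PARP3-/- share minus the WT share was -7.30, -0.639 and -3.79 percentage points for NDRG1 and -0.899, -2.14 and -2.76 for NDRG2, lower in all 3. The shares of NDRG3 (3.53, 1.26 and 3.88) and NDRG4 (4.67, 1.52 and 2.67) were higher in all 3 pairs. Shares within a library add up to the whole, so where NDRG1 and NDRG2 take less, NDRG3 and NDRG4 together must take more. Their higher shares are not a rise in their own levels, whose log2 fold changes were -0.03 for NDRG3 and -0.10 for NDRG4. The summed level was 231 ± 31.0 CPM per kb in WT and 178 ± 14.6 in PARP3-/- (SD, n = 3 each), again with no overlap and an exact permutation p of 0.1. The sum is carried mostly by NDRG1 with this length. With the canonical length it was 64.6 ± 5.21 and 53.7 ± 2.60 CPM per kb (SD, n = 3 each; exact permutation p = 0.1), NDRG2 stood at 3.25% and 1.66%, and the gain in the share of NDRG3 was 6.62 in place of 2.89 percentage points. With that length NDRG1 made up 47.8% in WT and 41.7% in PARP3-/-, and NDRG3 38.9% and 45.5%. The size of each share thus rests on the length used.

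**Figure D3:**
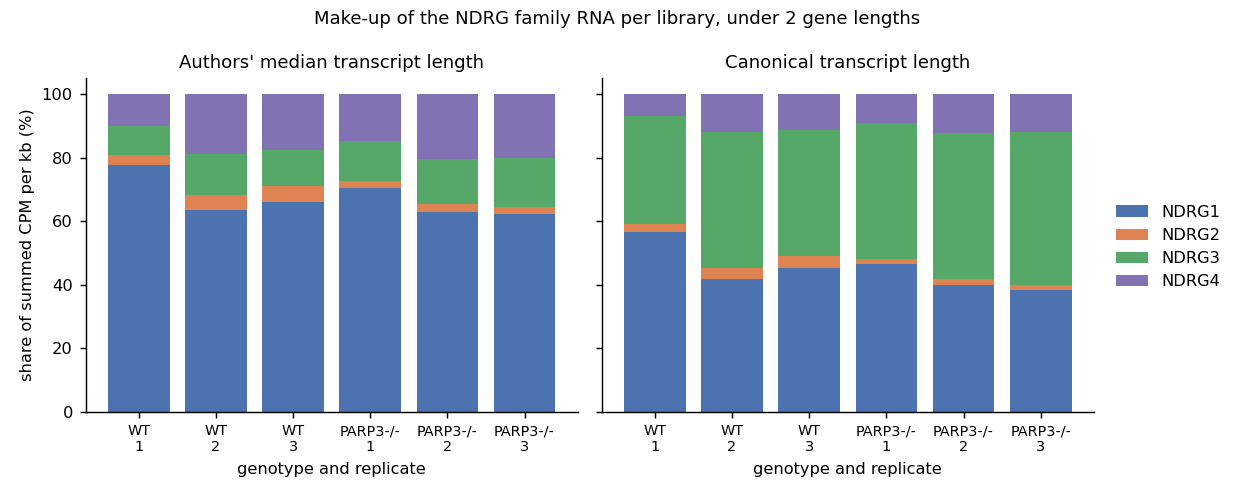
Share of each NDRG gene in the summed CPM per kb of the family (vertical axis, percent from 0) for each of the 6 libraries, with the authors' median transcript length on the left and the canonical transcript length on the right. NDRG1 takes 62.3% to 77.8% on the left and 38.5% to 56.7% on the right, where NDRG3 takes 33.9% to 48.1%, and the NDRG2 band is thinner in PARP3-/- on both sides.

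The genes around each member were read from the same fit, taking those within 500 kb. Around NDRG2, 1 of 13 tested genes was called in edgeR (1 at an unadjusted p under 0.05 and 1 in DESeq2). Of all genes tested in edgeR, 4.7% were called in either direction and 16.3% had an unadjusted p under 0.05. The called gene was SALL2, a zinc finger transcription factor gene 450 kb away (log2 fold change -1.81, adjusted p = 0.00294 in edgeR). The median log2 fold change of the 13 was -0.00. ARHGEF40, a guanine nucleotide exchange factor gene that overlaps the far upstream end of NDRG2 on the other strand, had 0.05 (standard error 0.08, adjusted p = 0.879 in edgeR). Union-mode counting drops reads on positions covered by both genes unless strand is used, and the strand setting is not given in the sources used here. The nearest tested genes that do not overlap NDRG2, METTL17 at 19.7 kb and ZNF219 at 19.2 kb, had log2 fold changes of -0.06 and -0.27, neither called.

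Around NDRG1, 0 of 4 tested genes were called in edgeR (0 at an unadjusted p under 0.05 and 0 in DESeq2), with a median of -0.19, and PHF20L1 and ST3GAL1 on its sides had -0.07 and -0.09. Around NDRG3, 0 of 14 were called in edgeR (0 at an unadjusted p under 0.05 and 0 in DESeq2), with a median of -0.07, and with the block 4 of the 14 were called, all lower, where 12.5% of all genes were called lower. On its sides, DSN1 had 0.04 and C20orf24 -0.40 (adjusted p = 0.374 in edgeR, 0.00171 with the block). Around NDRG4, 1 of 14 was called in edgeR (3 at an unadjusted p under 0.05 and 1 in DESeq2), beside 4.7% of all genes called and 16.3% under that unadjusted limit. The called gene was MMP15, a membrane matrix metalloprotease gene 416 kb away (-1.24, adjusted p = 0.0117 in edgeR). SETD6, a lysine methyltransferase gene 1.85 kb past the end of NDRG4, had -0.06, and GINS3 on the other side had -0.11. With the block 3 of the 14 were called, all lower, beside the same 12.5% of all genes.

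Since NDRG1 is known as a target of hypoxia-inducible factors (HIF), the HIF pathway was counted beside it. Of 9 tested genes of oxygen sensing and HIF subunits, 1 was called lower and 0 higher in edgeR, beside 3.33% and 1.36% of all genes. At an unadjusted p under 0.05 there were 3, beside 16.3% of all genes. The median log2 fold change was -0.00, as against -0.01 over all genes. With the block 1 was lower and 2 were higher, where 12.5% of all genes were called lower and 11.8% higher. The one that fell was VHL, which marks HIF subunits for degradation, with 109, 96.2 and 102 CPM in WT and 81.6, 72.7 and 72.6 CPM in PARP3-/-. This is a log2 fold change of -0.44 (standard error 0.09, adjusted p = 0.0369 in edgeR), and the call was lost when any 1 of 5 of the 6 libraries was left out, with adjusted p up to 0.191. Its log2 fold change in those fits was -0.49 to -0.39. VHL was called with DESeq2 (adjusted p = 0.00121), the block (9.34e-05 in edgeR) and without replicate 1 of both genotypes (0.000446 in edgeR). It was not called with a mean count of at least 50 (0.0524 in edgeR). HIF1A, an oxygen-regulated subunit, stood at 665 to 712 CPM in WT and 758 to 839 in PARP3-/- (log2 fold change 0.24, adjusted p = 0.240 in edgeR, 0.0114 with the block). Without replicate 1 of both genotypes it had 0.26 (adjusted p = 0.0177 in edgeR). EPAS1 (HIF-2α) stood at 7.98 to 12.5 CPM in WT and 8.02 to 12.0 CPM in PARP3-/-, and its log2 fold change of -0.00 changed sign with DESeq2, with other size factors and with the block. The study reported it lower by RT-qPCR in PARP3-deficient LN229 at normal oxygen, a decrease that these counts did not show. The prolyl hydroxylase genes EGLN1 and EGLN3 had -0.00 and -0.05, with signs that changed when single libraries were left out. RUNX3, a transcription factor gene that the study followed in hypoxia, had at most 2 counts in any library and was not tested.

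Of 24 tested HIF target genes other than NDRG1, 1 was called lower and 0 higher in edgeR, beside 3.33% and 1.36% of all genes. At an unadjusted p under 0.05 there were 2, beside 16.3% of all genes. The median log2 fold change of these targets was 0.01. The one that fell was CA12, a membrane carbonic anhydrase, from 1.77 ± 0.481 to 0.215 ± 0.0716 CPM (SD, n = 3 each; log2 fold change -2.99, adjusted p = 0.00401 in edgeR). With the block 6 were called lower and 4 higher, where 12.5% of all genes were called lower and 11.8% higher, and CA9, a carbonic anhydrase often used as a hypoxia marker, was among the lower ones (-1.16, adjusted p = 0.0296 in edgeR, and 0.0581 without replicate 1 of both genotypes) at no more than 0.739 CPM in any library. The glucose transporter gene SLC2A1 (0.06), VEGFA (-0.35), the mitophagy gene BNIP3 (-0.06) and the lactate dehydrogenase gene LDHA (-0.18) were not called, and the sign of each changed when 1 of the libraries was left out.

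The MYC network was counted because MYC and MYCN are known to repress NDRG1. Of 12 tested genes, 1 was called lower and 0 higher in edgeR, beside 3.33% and 1.36% of all genes. At an unadjusted p under 0.05 there were 2, beside 16.3% of all genes, and the median of the list was -0.11. With the block 3 were lower and 2 higher, beside 12.5% and 11.8% of all genes. MYCN fell from 15.1, 8.96 and 21.1 CPM in WT to 0.531, 0.135 and 0.238 CPM in PARP3-/-, a log2 fold change of -5.72 (standard error 0.51, adjusted p = 0.00162 in edgeR), and stayed called in each of the 6 fits without 1 library. MYC stood at 34.2 ± 0.986 and 29.7 ± 3.11 CPM (SD, n = 3 each; log2 fold change -0.20, adjusted p = 0.349 in edgeR), and its partner MAX had -0.24 (adjusted p = 0.525 in edgeR, 0.0404 with the block), which was -0.06 without WT replicate 1 and -0.12 without replicate 1 of both genotypes (adjusted p = 0.221 in edgeR). The mean level of NDRG1, which was not called in edgeR on genotype alone, was also lower in PARP3-/-, and a link between the MYC network and NDRG1 was not tested.

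The kinases that act on NDRG1 include SGK1, the only called gene among 9 tested of that list in edgeR, beside 4.7% of all genes called in either direction. The list had 1 gene at an unadjusted p under 0.05, beside 16.3% of all genes, and a median of -0.06. With the block 2 were lower and 0 higher, beside 12.5% and 11.8% of all genes. SGK1 fell from 55.1, 48.9 and 59.8 CPM in WT to 34.2, 30.2 and 36.0 CPM in PARP3-/- (log2 fold change -0.71, standard error 0.11, adjusted p = 0.0135 in edgeR). The call held in 4 of the 6 fits without 1 library, with adjusted p up to 0.0698. GSK3B had 0.03 and RICTOR, a subunit of the mTOR complex that activates SGK1, had 0.05, with a sign that changed when single libraries were left out. Phosphorylation of the NDRG1 protein was not measured in these data.

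The genes of the G9a complex, which deposits methyl groups on histone H3 lysine 9, were not called in edgeR (0 of 3, 0 at an unadjusted p under 0.05 and 0 in DESeq2). The log2 fold change was 0.06 for EHMT2 (G9a), 0.03 for EHMT1 (GLP1) and -0.22 for WIZ, which stood at 15.5 to 18.7 CPM in WT and 13.6 to 15.4 CPM in PARP3-/- (adjusted p = 0.394 in edgeR, 0.0501 with the block). The study followed the acetylation of tubulin protein under hypoxia. Of 3 genes for enzymes that add or remove these acetyl groups, 0 were called in edgeR (0 at an unadjusted p under 0.05 and 0 in DESeq2). The tubulin acetyltransferase gene ATAT1 had 0.26 (adjusted p = 0.336 in edgeR), and the deacetylase genes HDAC6 and SIRT2 had 0.20 and -0.17, with adjusted p of 0.718 and 0.586 in edgeR and 0.0172 and 0.0446 with the block. Without replicate 1 of both genotypes the adjusted p in edgeR was 0.0284 for HDAC6 and 0.195 for SIRT2, and with 1 library left out HDAC6 ranged from 0.04 to 0.40 and SIRT2 from -0.26 to -0.07.

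**Figure D4:**
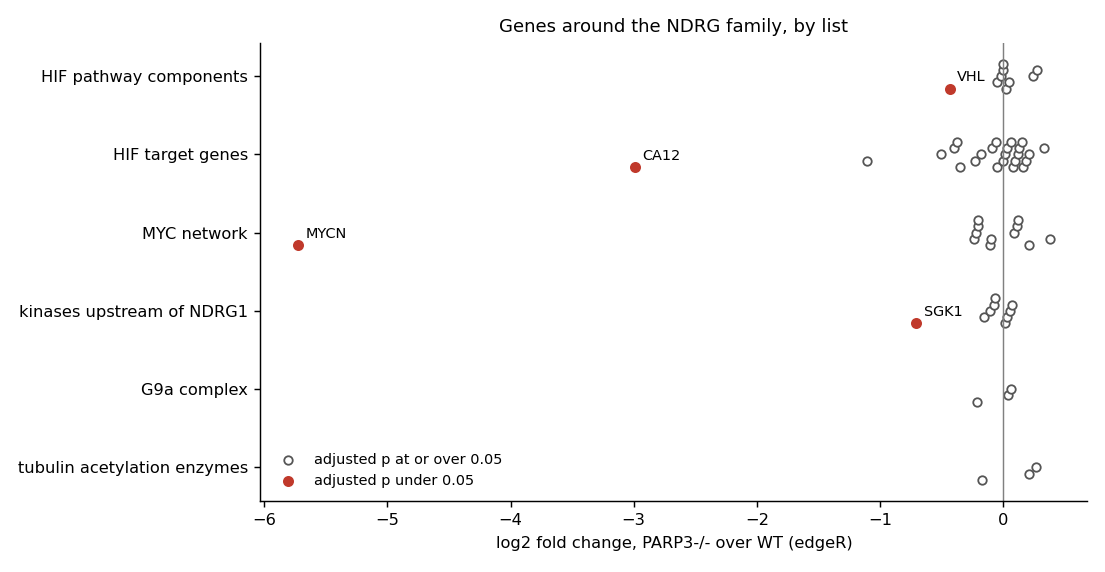
Log2 fold change of PARP3-/- over WT in the edgeR fit on genotype alone (horizontal axis) for the tested genes of 6 lists around the NDRG family (rows); each point is a gene, red where the adjusted p is under 0.05, and vertical offsets within a row only separate the points. VHL, CA12, MYCN and SGK1 are the red points, and the others lie between -1.11 (CA9) and 0.38 (MXD4).

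Cell type markers were counted because NDRG2 is known from astrocytes and other glia and NDRG4 from neurons. Of 3 tested astrocyte markers out of 6, S100B fell (194 ± 44.3 to 93.1 ± 13.8 CPM, SD, n = 3 each; log2 fold change -1.06, adjusted p = 0.0256 in edgeR, called in 3 of the 6 fits without 1 library) and the glutamate transporter gene SLC1A3 rose (8.02 ± 1.06 to 16.2 ± 0.671 CPM, SD, n = 3 each; 1.01, adjusted p = 0.00508 in edgeR). ALDH1L1, AQP4 and SLC1A2 had at most 10 counts in any library. The summed level of the astrocyte list was 177 to 258 CPM in WT and 110 to 135 CPM in PARP3-/-, of which S100B alone made up 70.8% to 90.9% in each library. The third tested marker, the gap junction gene GJA1, had a log2 fold change of -0.31 (adjusted p = 0.454 in edgeR, 0.0114 with the block). None of the 5 tested glioma markers was called in edgeR (2 at an unadjusted p under 0.05, 1 in DESeq2), and their list summed to 5052 to 5602 CPM in WT and 4910 to 5924 CPM in PARP3-/-. VIM, at 3688 to 4382 CPM, makes up most of that sum. The log2 fold changes were 0.14 for VIM, -0.05 for NES, -0.25 for CD44, -0.32 for SOX2 and -0.53 for OLIG2, the gene called in DESeq2. Of 4 tested neuron markers, 0 were called in edgeR (0 at an unadjusted p under 0.05 and 0 in DESeq2), with sums of 62.0 to 125 CPM in WT and 69.1 to 103 CPM in PARP3-/-, beside the overlapping levels of NDRG4. SYT1, at 43.6 to 108 CPM, makes up most of the neuron sum. Of the immune and endothelial markers only VWF was tested, and it was not called in edgeR (0 at an unadjusted p under 0.05 and 0 in DESeq2). With the block, 2 astrocyte markers were lower and 1 higher, and 3 glioma markers were lower, beside 12.5% of all genes lower and 11.8% higher. On genotype alone in edgeR, 4.7% of all genes were called in either direction and 16.3% had an unadjusted p under 0.05. The part of these markers in the NDRG2 difference was not tested.

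The genes whose log2 CPM followed each member most closely were found by Pearson's r over the 6 libraries, which share genotype and replicate differences, so that r is a description only. For NDRG2 these were ARL6IP5 (0.998), TSPAN9 (0.995) and LSR (0.993), and 373 genes had r above 0.95. For NDRG1 they were TPT1-AS1 (0.997), PHF2 (0.997) and ZMAT3 (0.996), with 208 genes above 0.95. NDRG3 was followed by MAT2B (0.998), AADAT (0.993) and HAUS7 (0.993), with 149 genes above 0.95, and NDRG4 by EMP2 (0.996), CCDC34 (0.995) and CREM (0.992), with 335. No member was among the 3 closest genes of another.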

How the data were processed

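RNA-seq of 3 WT and 3 PARP3-/- LN229 libraries was analysed from the deposited raw counts, which the authors had not normalized. Per the study's methods, libraries were strand-specific and ribosome-depleted, although the labels name polyA RNA. By the study's methods, with versions from the submitters' processing notes, reads were trimmed with cutadapt 1.10, cleared of ribosomal RNA and spike-in matches with Bowtie2 2.2.8, aligned to hg38 with STAR 2.5.3a and counted per Ensembl gene with HTSeq 0.6.1p1, which the authors ran in union mode. The table also lists the authors' median transcript length per gene. A further 12 columns of per-sample values and 3 columns of the authors' own DESeq2 comparison (log2 ratio, p-value and adjusted p-value) were not used.

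The counts were tested in R 4.3.3 with edgeR 4.0.16 (quasi-likelihood, TMM, filterByExpr with a minimum count of 10, genotype only), with Benjamini-Hochberg adjustment over all tested genes and calls at an adjusted p under 0.05. Each standard error is the fold change over the square root of F. Same-numbered libraries deviated together (correlations across genes of 0.677, 0.517 and 0.242). WT replicate 2 with PARP3-/- replicate 3 had 0.41, and WT replicate 3 with PARP3-/- replicate 2 had 0.264. Replicate 1 of either genotype had negative correlations with replicates 2 and 3 of the other. The correlations thus set replicate 1 apart but do not settle which of replicates 2 and 3 belong together. The numbers were taken to pair the samples as an assumption, and a replicate block was fitted beside the main model. The other alternatives were DESeq2 1.42.0, RLE size factors, testing without the low-count filter, a minimum mean count of 50, each library left out, replicate 1 left out of both genotypes, an adjusted p under 0.001 with a log2 fold change beyond 1, and the canonical transcript length. Shares of the family were compared by exact permutation of the 6 libraries. The fits were tested on simulated counts.

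Members, gene lists and alternatives were chosen with earlier results of these data known. Named genes are the 4 members, PARP3, a set list of regulators, listed genes that passed the test, the nearest tested genes on each side of a member, and for each member the 3 genes of highest r. SALL2, MMP15 and MXD4 were named after their values were seen, as were the glial and neuronal markers that did not pass. Some listed genes, and 1 marker list, are not reported here. Transcripts and exons are from GENCODE 44 and promoters from RefSeq on GRCh38.p14.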

Additional observations from a re-analysis of the deposited data

How the results depend on the processing

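NDRG2 kept its direction under every alternative run, and its log2 fold change ranged from -1.33 to -1.09 when 1 library was left out, with a call in 5 of the 6 such fits. NDRG1 was not called in edgeR on genotype alone and was called with the replicate block (-0.45) and without replicate 1 of both genotypes (-0.39). The block changed no call of NDRG2, NDRG3 or NDRG4. Leaving out 1 library gave NDRG1 -0.61 to -0.26. NDRG3 ranged from -0.07 to -0.02 and NDRG4 from -0.27 to 0.0067 in those fits, the latter with a change of sign. The cause of these shifts was not tested. Shares of the family kept their direction apart from NDRG1, whose difference ranged from -6.72 (without WT replicate 2) to 0.43 (without WT replicate 1) percentage points with 1 library left out, and the NDRG3 share difference was 6.62 with the canonical transcript length. That of NDRG4, 2.96 in the main setting, was 0.21 (without WT replicate 1) to 4.84 (without PARP3-/- replicate 1) with 1 library left out and 1.11 with the canonical length.

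The number of genes called lower, 571 in the main model, was 871 with DESeq2, 331 with a mean count of at least 50, 2143 with the replicate block, 1739 without replicate 1 of both genotypes, 76 under the stricter criteria and 281 to 606 with 1 library left out. The number called higher, 234, was 475, 2023, 1536 and 6 with DESeq2, the block, replicate 1 left out and the stricter criteria, and 49 to 259 with 1 library left out. HIF targets called lower, 1, were 2 with DESeq2, 2 without a filter, 0 with a mean count of at least 50, 6 with the block, 3 without replicate 1, 0 under the stricter criteria and 1 to 2 with 1 library left out. Those called higher, 0, were 4 with the block and 3 without replicate 1.

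Among other named genes, signs changed for EPAS1 (0.0050 with DESeq2, 0.0017 with RLE size factors, 0.0077 with the block, 0.042 without replicate 1, -0.18 to 0.23 with 1 library left out), EGLN1 (0.00011 with DESeq2, -0.12 to 0.093 with 1 library left out) and GSK3B (-0.00081 without replicate 1). With 1 library left out, EGLN3 ranged from -0.27 to 0.22, RICTOR from -0.037 to 0.14, SLC2A1 from -0.12 to 0.26, VEGFA from -0.64 to 0.28, BNIP3 from -0.29 to 0.19 and LDHA from -0.49 to 0.072. At 82 to 299 counts per library, NDRG2 has the fewest counts of the family and the largest relative counting error.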
